A study of Bos taurus with 79 samples.

Results

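PENK and NMB code for the precursors of 2 neuropeptides, and were followed across 4 days of the estrous cycle and early pregnancy in the endometrium of cattle. The members were the genes whose symbol the platform annotation gave alone to a probe set, which found 1 probe set for each, so that 2 of the 9155 named genes on the array are described. PENK has the gene ID 281387 and NMB the gene ID 506584. Both genes were chosen by their log2 values in these same 16 groups, so their levels and differences are a description and no test of them is given.

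Proenkephalin, the product of PENK, is cut into several copies of Met-enkephalin and a copy of Leu-enkephalin, opioid peptides that act through the delta and mu opioid receptors. NMB codes for the precursor of neuromedin B, a bombesin-like peptide that acts through the receptor NMBR and contracts smooth muscle in several organs. Both precursors are cut at pairs of basic residues by prohormone convertases and trimmed by carboxypeptidase E, and neuromedin B is also amidated at its end. Both peptides are best known from the nervous system, but PENK mRNA is also found in the endometrium of several mammals.

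Gene expression was measured on 79 Affymetrix bovine arrays, 1 for each endometrial sample, from cross-bred beef heifers whose estrous cycles had been synchronised. Heifers were cyclic controls, not inseminated, or inseminated and pregnant at slaughter, and their progesterone was either normal or raised. Raised progesterone came from a PRID, a progesterone-releasing intravaginal device put in on day 3 and left there until slaughter. The labels abbreviate cyclic heifers without the device as CN and with it as CH, and pregnant heifers without it as PN and with it as PH; the groups without it are called normal and those with it high progesterone. Slaughter was on day 5, 7, 13 or 16, which gave 16 groups of 5 arrays, except for CH on day 7, which held 4 (replicates 2 to 5). The age of the heifers is not given in the sources used here. Titles number the samples of a group as biological replicates. If these do not stand for separate heifers, p-values measure only the spread between the samples.

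The RNA came from strips of whole endometrium, so every value is an average over the cell types in the strip. The mean log2 value of 12 measured epithelial markers lay between 6.92 and 8.05 on the arrays, that of 11 stromal markers between 9.99 and 11.12. The mean of 12 nerve and neuroendocrine markers lay between 3.16 and 4.06. The mean of 8 smooth muscle markers lay between 6.28 and 9.18 on 76 arrays and between 11.00 and 12.45 on the other 3, which were day 5 PN 4, day 7 PH 5 and day 13 PH 4 (a group followed by its replicate number). A further 4 arrays stood apart by a narrow distribution of values or a large distance from their group mean, among them day 7 CN 5. Levels below are log2 values as deposited, means are given ± SD over the arrays of a group, and differences are log2 differences ± the SE of a linear model of the 16 group means. That SE uses 1 spread per probe set over all groups, while the spread of PENK and NMB was not the same on all days. With 4 or 5 arrays a group, the array number bounds the precision.

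PENK was lowest on day 5 and highest on days 13 and 16. The mean of the 4 group means was 11.47 on day 5, 12.39 on day 7, 13.88 on day 13 and 14.02 on day 16. In bulk tissue fewer cells of a type and less RNA per cell cannot be told apart, which holds for every difference given here. The pooled SD within groups was 0.81 on day 5, 1.06 on day 7, 0.26 on day 13 and 0.32 on day 16. The day 7 value came mostly from CN, with an SD of 1.92 against 0.44 in CH, 0.37 in PN and 0.51 in PH.

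On day 5 the 5 CN arrays had PENK values of 12.25, 11.31, 12.61, 10.19 and 11.04, a mean of 11.48 ± 0.97. The CH arrays read 11.46, 12.10, 12.04, 11.72 and 10.75, a mean of 11.62 ± 0.55. The PN arrays read 12.61, 10.48, 9.84, 11.28 and 11.25 (11.09 ± 1.04), and the PH arrays 12.22, 11.86, 12.07, 10.95 and 11.28 (11.68 ± 0.54). All 4 groups overlapped, and both groups with normal progesterone held values below the lowest of the groups with the device.

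On day 7 the CN arrays read 12.97, 11.66, 13.13, 11.10 and 8.38, a mean of 11.45 ± 1.92. The CH arrays read 12.33, 12.88, 13.41 and 12.85 (12.87 ± 0.44). The PN arrays read 12.29, 12.32, 11.63, 12.60 and 12.48 (12.26 ± 0.37), and the PH arrays 12.48, 12.40, 13.47, 13.37 and 13.20 (12.99 ± 0.51). The value of 8.38, in CN 5, was the lowest PENK value of the series. On that array the mean of the leukocyte markers was 6.28, against 4.63 to 5.60 on the other 4 arrays of its group, and the part of this in the low PENK value was not tested.

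On day 13 the PENK values of CN were 13.71, 13.84, 13.21, 13.98 and 13.53 (13.65 ± 0.30), and those of CH 14.17, 13.97, 13.80, 14.31 and 14.14 (14.08 ± 0.20). The PN arrays read 14.15, 14.55, 13.80, 13.98 and 13.85 (14.07 ± 0.30), and the PH arrays 13.75, 13.95, 13.56, 13.40 and 13.98 (13.73 ± 0.25). On day 16 the lowest and highest of the 20 values were 13.39 and 14.64, and the CN mean was 14.10 ± 0.28, the CH mean 13.90 ± 0.41, the PN mean 14.05 ± 0.38 and the PH mean 14.04 ± 0.14. The late groups thus lay close together at the upper end of the values of PENK.

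**Figure D1:**
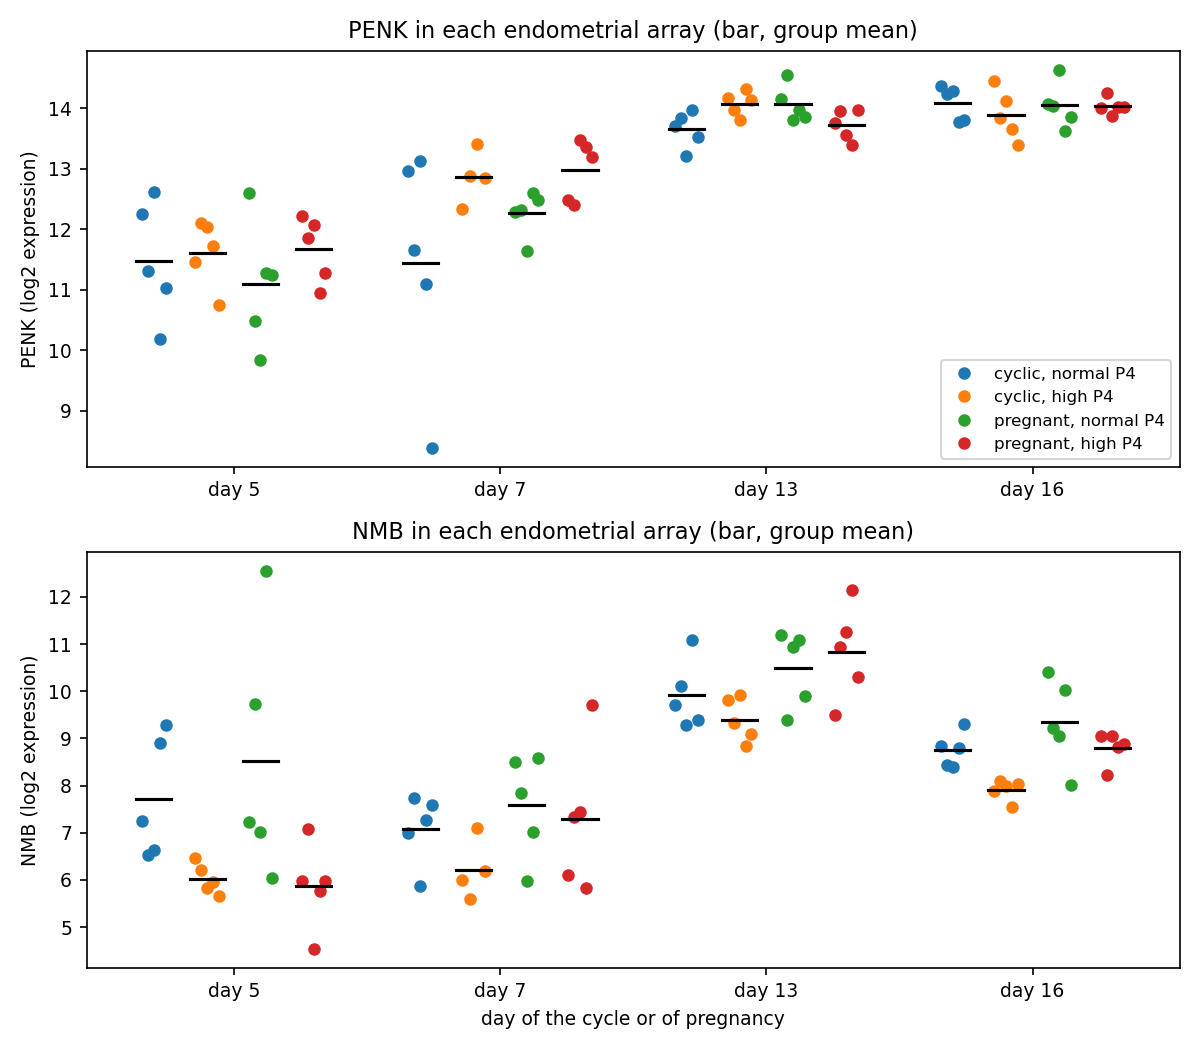
Deposited log2 values of PENK and NMB on each of the 79 arrays, by day of slaughter, with CN, CH, PN and PH in separate colours and a black bar at each group mean. PENK climbs from day 5 to day 13 and its spread narrows, while NMB is highest on day 13 and has single high arrays on days 5 and 7.

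From day 7 to day 13 PENK was higher by 1.49 ± 0.22 as a mean of the 4 groups, which is 2.81-fold. By group it was 2.21 ± 0.43 (CN), 1.21 ± 0.46 (CH), 1.80 ± 0.43 (PN) and 0.74 ± 0.43 (PH). In CN, CH and PN every day 13 array was above every day 7 array, a pattern that 5.94%, 9.28% and 7.86% of all probe sets showed in those groups. In PH the highest day 7 value, 13.47, was above the lowest of day 13, 13.40. Of all probe sets 1.02% had a day 7 to day 13 difference at least as high as PENK's. In the same interval 7 of 9 endothelial markers were called higher by limma, with a median difference of 0.43. The group means of that list went from 5.57 to 5.72 on day 7 to 6.01 to 6.21 on day 13. Of 12 epithelial markers 3 were called higher and 4 lower, and of 11 stromal markers 3 higher and 3 lower. Of all probe sets 18.8% were called higher and 18.1% lower. The part of these markers in the changes of PENK and NMB was not tested.

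From day 5 to day 7 PENK was higher by 0.93 ± 0.22, or 1.90-fold, but not in every group. CH gave 1.25 ± 0.46, PN 1.17 ± 0.43 and PH 1.31 ± 0.43, whereas CN gave -0.033 ± 0.43, with the low array CN 5 in it. Day 5 and day 7 did not overlap in CH and PH, a pattern in the higher direction that 3.25% and 1.86% of probe sets showed. In this interval 6 of 11 stromal, 6 of 13 leukocyte and 2 of 8 smooth muscle markers were called lower by limma. Their median differences were -0.15, -0.45 and -0.71. Of 12 epithelial markers 2 were called higher and 3 lower, and the nerve and endothelial lists gave no call. Of all probe sets 8.84% were called higher and 11.8% lower. The part of these markers in the PENK change was not tested. From day 13 to day 16 the difference was 0.14 ± 0.22, and all 4 groups overlapped.

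Among the 4 days the progesterone difference of PENK was largest on day 7. It was 1.07 ± 0.31, or 2.10-fold, as a mean of 1.42 ± 0.46 in cyclic and 0.72 ± 0.43 in pregnant heifers, with the groups overlapping in both. Without day 7 CN 5 it was 0.69, and without all 7 arrays that stood apart 0.66. The 13 leukocyte markers had a median difference of -0.49 in the same comparison, with none called, and their part in it was not tested. On day 5 it was 0.36 ± 0.31, on day 13 0.043 ± 0.31 and on day 16 -0.10 ± 0.31. The day 13 mean joins opposite signs, 0.43 ± 0.43 in cyclic and -0.34 ± 0.43 in pregnant heifers, and the difference between those 2 values was -0.76 ± 0.61.

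Pregnancy went with differences in PENK of -0.16 ± 0.31 on day 5, 0.47 ± 0.31 on day 7, 0.031 ± 0.31 on day 13 and 0.048 ± 0.31 on day 16. The day 7 value rests on 1 array: it was 0.083 without day 7 CN 5. Ordered by mean, the 8 groups of days 13 and 16 took the first 8 places, from day 16 CN at 14.10 to day 13 CN at 13.65, with no step between neighbours larger than their SD. The step from day 13 CN to day 7 PH, 0.67, was larger than the SD of either group. Steps of 0.61 from day 7 CH to day 7 PN and of 0.59 from day 7 PN to day 5 PH also exceeded the SD of both groups, and the remaining 5 groups did not part by more than their SD.

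NMB followed another course: it was low on days 5 and 7, highest on day 13 and lower again on day 16. The mean of the 4 group means was 7.03 on day 5, 7.04 on day 7, 10.16 on day 13 and 8.70 on day 16. Its pooled SD within groups was 1.54, 1.08, 0.77 and 0.54 on these days.

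On day 5 the CN arrays had NMB values of 7.24, 6.54, 6.63, 8.90 and 9.28, a mean of 7.72 ± 1.29. The CH arrays read 6.46, 6.20, 5.83, 5.96 and 5.66, a mean of 6.02 ± 0.32. The PN arrays read 7.24, 9.74, 7.01, 12.56 and 6.03 (8.51 ± 2.64), and the PH arrays 5.97, 7.07, 4.54, 5.77 and 5.98 (5.87 ± 0.90). The 2 groups with normal progesterone held every value above 7.07, up to 12.56 in PN 4, which was the highest NMB value of the series and came from an array with high smooth muscle markers.

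With the device NMB on day 5 was lower by 2.17 ± 0.47 on the log2 scale, a 4.51-fold difference. A difference this low was found for 0.0167% of all probe sets. In cyclic heifers it was -1.70 ± 0.66, and every CH array was below every CN array, which held for 0.575% of probe sets in that direction. In pregnant heifers it was -2.65 ± 0.66, with overlap through PN 5 at 6.03. Leaving out single arrays of day 5 moved the mean between -2.48 and -1.67, the smaller size without PN 4, and without all 7 arrays that stood apart it was -1.64.

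**Figure D2:**
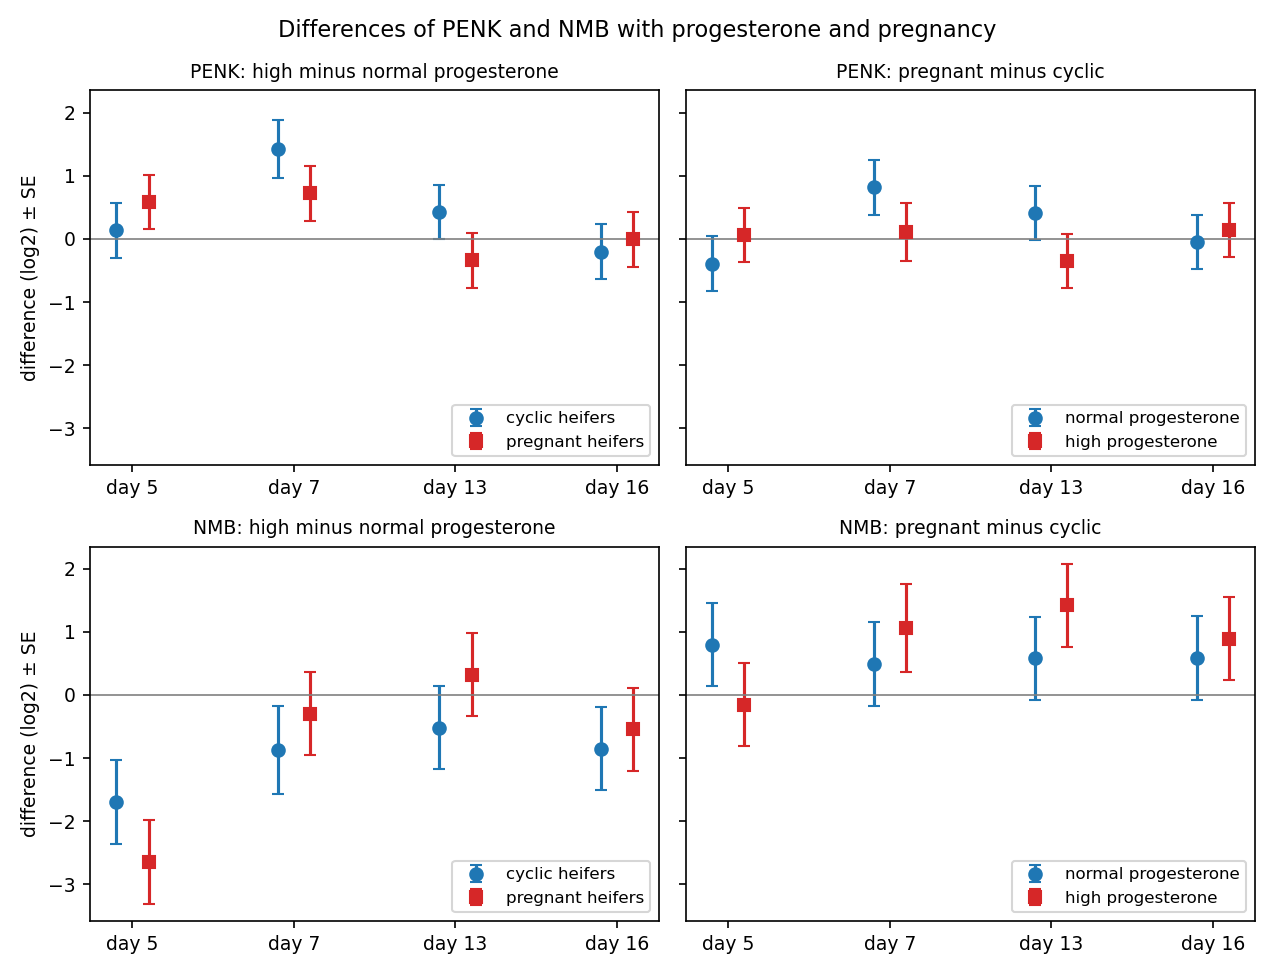
Differences of PENK and NMB on each day, on the log2 scale with the SE of the fit as error bars. High minus normal progesterone is drawn for cyclic and for pregnant heifers, and pregnant minus cyclic for normal and for high progesterone. NMB on day 5 under the device, at -1.70 in cyclic and -2.65 in pregnant heifers, lies farthest from 0.

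On day 7 NMB read 6.99, 7.73, 5.88, 7.27 and 7.58 in CN (7.09 ± 0.74), and 5.99, 5.59, 7.10 and 6.20 in CH (6.22 ± 0.64). The PN arrays read 8.49, 7.84, 5.97, 7.02 and 8.58 (7.58 ± 1.10), and the PH arrays 6.11, 7.32, 7.44, 5.83 and 9.70 (7.28 ± 1.53). All groups overlapped. The progesterone difference was -0.58 ± 0.48, and -0.89 without PH 5, the array at 9.70, which had high smooth muscle markers.

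On day 13 the NMB values were 9.71, 10.11, 9.29, 11.09 and 9.38 in CN (9.92 ± 0.73) and 9.81, 9.32, 9.92, 8.84 and 9.09 in CH (9.40 ± 0.46). The PN arrays read 11.19, 9.40, 10.94, 11.08 and 9.89 (10.50 ± 0.81), and the PH arrays 9.49, 10.93, 11.25, 12.14 and 10.29 (10.82 ± 1.00). On day 16 they were 8.83, 8.43, 8.40, 8.81 and 9.32 in CN (8.76 ± 0.37), 7.88, 8.09, 7.99, 7.55 and 8.04 in CH (7.91 ± 0.22), 10.41, 9.23, 9.06, 10.02 and 8.01 in PN (9.34 ± 0.93) and 9.04, 8.22, 9.05, 8.81 and 8.88 in PH (8.80 ± 0.34). The CH group was lowest on both late days, and on day 16 all its values were below those of CN and PH.

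From day 7 to day 13 NMB was higher by 3.12 ± 0.33, or 8.67-fold, with 2.83 ± 0.66 for CN, 3.18 ± 0.70 for CH, 2.92 ± 0.66 for PN and 3.54 ± 0.66 for PH. The days did not overlap in CN, CH and PN, as for 5.94%, 9.28% and 7.86% of probe sets. In PH they overlapped through day 7 PH 5, and without the 3 arrays with high smooth muscle markers the mean was 3.19. Of all probe sets 0.162% were as high or higher.

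From day 13 to day 16 NMB was lower in all 4 groups, by -1.46 ± 0.33 on average. CN gave -1.16 ± 0.66, CH -1.49 ± 0.66, PN -1.16 ± 0.66 and PH -2.02 ± 0.66. The days did not overlap in CH and PH, a pattern in the lower direction that 0.841% and 0.6% of probe sets showed. From day 5 to day 7 the mean was 0.012 ± 0.33. CN gave -0.63 ± 0.66, CH 0.20 ± 0.70, PN -0.94 ± 0.66 and PH 1.42 ± 0.66. The negative signs without the device were not kept by the medians, which rose in all 4 groups. In CN the median went from 7.24 to 7.27 and in PN from 7.24 to 7.84. The PN value includes day 5 PN 4 at 12.56 and the PH value day 7 PH 5 at 9.70, both high in smooth muscle markers.

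After day 5 the progesterone differences of NMB were smaller: -0.10 ± 0.47 on day 13 and -0.70 ± 0.47 on day 16. On day 16 cyclic heifers gave -0.85 ± 0.66 without overlap, as did 1.38% of probe sets in that direction, and pregnant heifers gave -0.54 ± 0.66 with overlap. Pregnancy went with NMB differences of 0.32 ± 0.47 on day 5, 0.78 ± 0.48 on day 7, 1.00 ± 0.47 on day 13 and 0.74 ± 0.47 on day 16. Day 5 gave -0.18 without PN 4, and day 7 gave 0.47 without PH 5 and 0.43 without the 7 arrays that stood apart.

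On day 13 the pregnancy difference was 0.58 ± 0.66 at normal and 1.42 ± 0.66 at high progesterone, with overlap in both. The smooth muscle markers differed the same way there, with a median over 8 genes of 0.45 at normal and 1.43 at high progesterone and none called, and with group means of 7.33 ± 0.34 in CN, 7.07 ± 0.32 in CH, 7.70 ± 0.82 for PN and 8.27 ± 2.38 for PH. Without PH 4, the array high in these markers, the NMB difference of day 13 was 0.84, and the part of the markers in it was not tested. On day 16 the values were 0.59 ± 0.66 at normal progesterone and 0.89 ± 0.66 at high progesterone, where every PH array was above every CH array, as for 1.69% of probe sets. Ordered by mean, the 4 day 13 groups led, from PH at 10.82 to CH at 9.40, and day 5 PH was last at 5.87. Among the 15 steps between neighbours only that from day 7 CN to day 7 CH, 0.87, was larger than the SD of both groups.

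The values of both genes were set beside markers of other cell types as deviations of each array from its group mean. The 3 arrays with high smooth muscle markers had the highest NMB value of their groups, 12.56, 9.70 and 12.14. On them all 8 measured smooth muscle genes, including MYH11, the smooth muscle myosin heavy chain, and DES, the intermediate filament desmin, were above the highest value of the other 76 arrays. Across 79 arrays the deviations of NMB and of the smooth muscle mean had r = 0.57, and across the 76 other arrays r = 0.38. The group means behind the second value still included the 3 arrays, so it is not independent of them. Both measures come from the same RNA and the same array, and the part of smooth muscle in the NMB values was not tested.

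**Figure D3:**
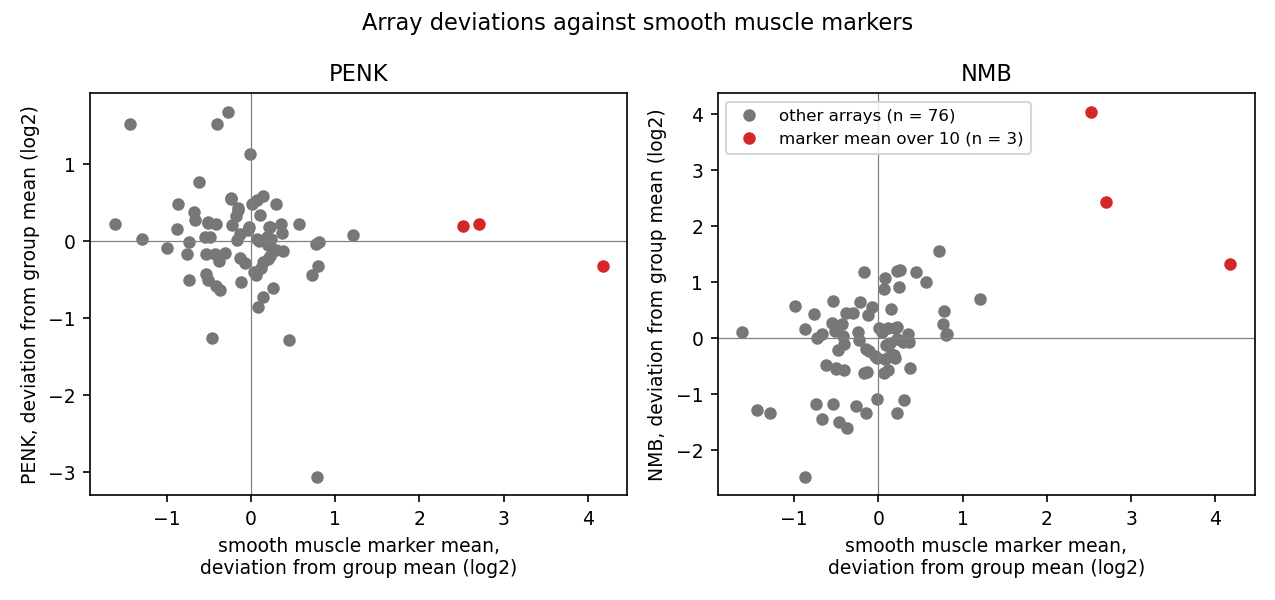
Deviations of NMB and PENK from their group mean (log2, vertical axes) against those of the mean of 8 smooth muscle markers (log2, horizontal axes). The 3 arrays with a marker mean above 10 are in red. The red arrays have the highest NMB of their groups.

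For PENK the same correlation was -0.18 over 79 arrays and -0.28 over the 76, again with group means that included the other 3. The nerve and neuroendocrine markers gave 0.095 with NMB and -0.16 with PENK. With the epithelial, stromal, endothelial and leukocyte lists the correlations lay between -0.13 and 0.17 for NMB and between -0.20 and -0.040 for PENK. On day 5, where NMB was lower with the device, the smooth muscle mean was 8.23 ± 0.59 in CN and 7.99 ± 0.25 in CH, and 8.92 ± 1.54 in PN and 8.26 ± 0.19 in PH. It was thus also lower with the device in both arms, by less than the larger SD of each pair. The SD of PN includes PN 4. The highest smooth muscle means of day 5 were in PN 4 (11.44), PN 2 (9.18), CN 5 (8.96) and CN 4 (8.69). These arrays, all without the device, had the highest NMB values of that day, in this order 12.56, 9.74, 9.28 and 8.90. The part of smooth muscle in the NMB difference was not tested beyond the value of -1.67 without PN 4.

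The 2 genes had a correlation of 0.66 over the 16 group means (Spearman's rho 0.64), which share the days. Over the deviations of the 79 arrays from their group means it was -0.14 (rho -0.15).

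The genes whose group means were most like those of PENK, among 1340 named genes with an SD of group means of at least 0.5, were OXNAD1 (r = 0.99 over 16 group means), NXPH3, which codes for the secreted protein neurexophilin 3 (0.98), F11R, which codes for the junctional adhesion molecule A (0.98), N4BP2L1 (0.97) and LOC512464 (0.97). The least like were DNAJB5, a heat shock protein of the DnaJ family (-0.98), UBE2C, a ubiquitin-conjugating enzyme of mitosis (-0.98) and OSTC, a subunit of the oligosaccharyltransferase (-0.98). Over the array deviations within groups the values were smaller, 0.44 for F11R, 0.25 for OXNAD1 and -0.34 for DNAJB5.

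For NMB the most alike were NFIL3, a bZIP transcription factor (r = 0.88), SERPINA11, a member of the serpin family (0.87), RCAN2, a regulator of calcineurin (0.87), PARP8 (0.87) and ZC3H12A, an RNase that degrades inflammatory mRNAs (0.87). KCNK1, a potassium channel (-0.88), EEF1E1 (-0.87) and CCDC115 (-0.86) were least alike. Within groups NFIL3 gave 0.47 and the others no more than 0.24 in size. These likenesses are over groups that share days and are a description.

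The rest of the pathway was read from 6 lists with 116 symbols, of which 69 were measured and 41 of these had a mean under 3, near the floor of the values. Calls on these genes are from limma with Benjamini-Hochberg adjusted p under 0.05 over all 24016 probe sets of a comparison. Of the opioid system 5 of 9 genes were measured. PDYN, the precursor of the dynorphins, had a mean of 2.10, PNOC, the precursor of nociceptin, 2.22 and OPRM1, the mu opioid receptor, 1.88, all near the floor and without a call in any of the 15 comparisons. The other opioid receptors of the list, OPRD1, OPRK1 and OPRL1, were not analysed here, nor was any of the 4 genes of the bombesin-like list: GRP, GRPR, NMBR and BRS3.

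POMC, the precursor of beta-endorphin and ACTH, was read by 2 probe sets with means of 14.26 and 6.79. The brighter one, which represents the gene, had group means from 14.10 to 14.50 and passed the test in none of the 15 comparisons. With probe sets this far apart, the level of POMC is uncertain. OGFR, the receptor of Met-enkephalin in its role as opioid growth factor, was higher in pregnancy on day 16 by 0.43 ± 0.12 (limma adjusted p = 0.0239), where it was 4.97 in PH and 4.43 in PN against 4.31 in CN and 4.23 in CH. It was 1 of 69 pathway genes called for pregnancy on day 16, against 3.16% of all probe sets. The call was lost without CN 3, PN 5, PH 1 or PH 4 of that day. On days 5, 7 and 13 limma called 0 of the 69 for pregnancy, where 0.0167%, 0% and 0% of all probe sets did, and 2370, 1878 and 620 probe sets had an unadjusted p under 0.05.

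The breakdown enzymes of peptides moved most between days 7 and 13. Of 9 measured, 2 rose and 5 fell, with a median difference of -0.32 against -0.012 over all probe sets. Over the 6 lists 5 of 69 genes rose and 13 fell, against 18.8% and 18.1% of all probe sets, or 36.9% in either direction. ANPEP, the aminopeptidase N that removes the first residue of enkephalins, fell by 5.91 ± 0.26 on the log2 scale (limma adjusted p = 1.55e-29), from group means of 9.86 to 10.75 on day 7 to means of 4.07 to 4.58 on day 13. The lowest ANPEP value of day 7, 6.36 in the CN group, was still above the highest of day 13, 5.26. MME, the neprilysin that cuts enkephalins inside the chain, changed by -1.20 ± 0.25 (limma adjusted p = 4.22e-05), from means of 8.28 to 8.69 to means of 6.37 to 7.69, and single arrays overlapped.

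In the same interval DPP4, a dipeptidyl peptidase of the cell surface, rose by 2.59 ± 0.24 (limma adjusted p = 1.49e-14), and ECE1, an endothelin-converting enzyme that also cuts other peptides, by 1.83 ± 0.14 (limma adjusted p = 1.85e-17). The enzymes of the list thus did not share a direction. ANPEP and DPP4 had also been higher on day 7 than on day 5, by 0.75 (limma adjusted p = 0.0267) and 0.87 (limma adjusted p = 0.00452), among 11 of 69 pathway genes called, 5 higher and 6 lower. Of all probe sets 20.7% were called, 8.84% higher and 11.8% lower. The ANPEP call was lost without day 5 CN 3, day 5 PN 2 or day 7 CN 1.

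**Figure D4:**
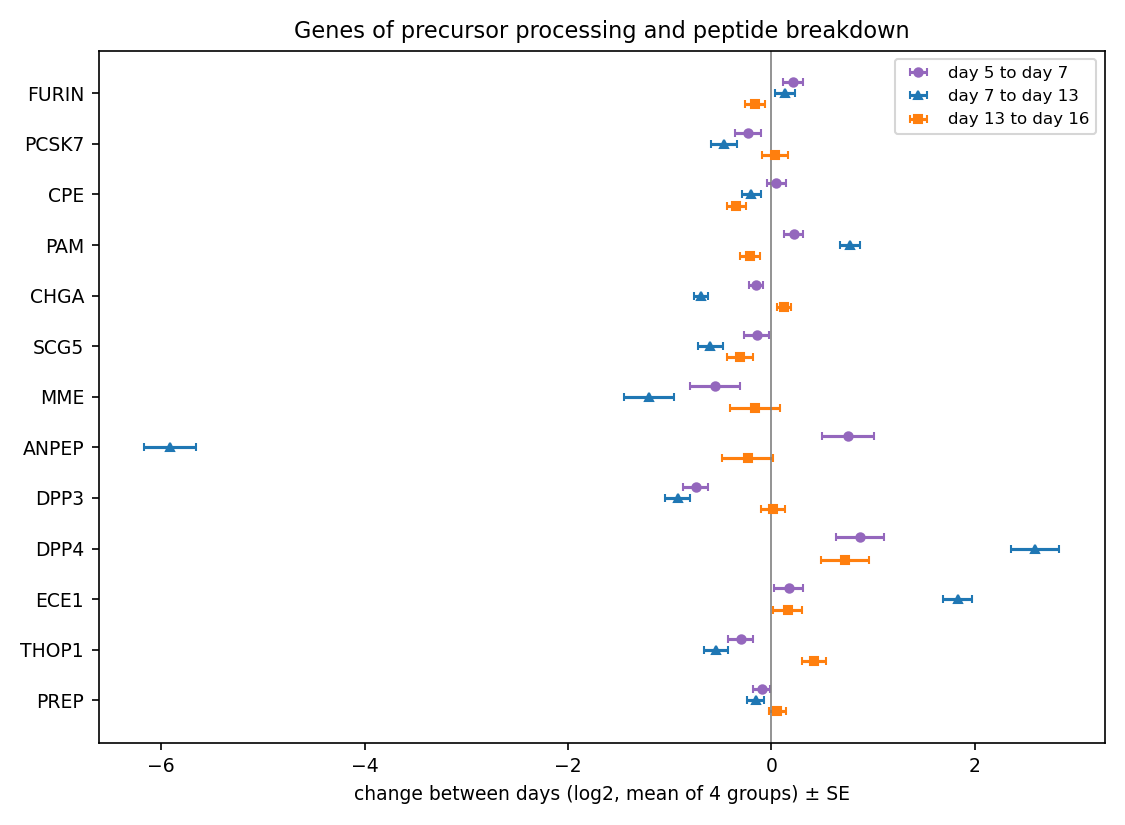
Changes between successive days, on the log2 scale with the SE of the fit, of 13 genes of precursor processing and peptide breakdown. ANPEP falls by 5.91 from day 7 to day 13, while DPP4 and ECE1 rise. CHGA is drawn by its brighter probe set, which differs in direction from its other one.

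Of 13 measured processing genes 1 was called higher and 3 lower from day 7 to day 13, against 18.8% and 18.1% of all probe sets, with a median difference of -0.043. With CHGA, whose probe sets disagree, taken by its other probe set the count was 2 higher and 2 lower. PAM, the enzyme that amidates neuromedin B, rose by 0.77 ± 0.10 (limma adjusted p = 7.03e-10), from means of 9.47 to 9.59 to means of 10.24 to 10.36. SCG5, a chaperone of the convertase PCSK2, gave -0.60 ± 0.13 (limma adjusted p = 7.55e-05). CHGA, a granin of secretory granules, gave -0.69 ± 0.07 (limma adjusted p = 2.84e-13) by the probe set of the highest mean and 5.80 ± 0.34 (limma adjusted p = 3.95e-23) by another, so its direction is uncertain. The convertases PCSK1 and PCSK2 had means of 2.24 and 2.10, near the floor, and were called in none of the 15 comparisons. FURIN, the convertase of the trans-Golgi network, gave 0.21, 0.13 and -0.16 over the 3 successive intervals and passed in none.

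CPE, carboxypeptidase E, fell by 0.35 ± 0.09 on the log2 scale from day 13 to day 16 (limma adjusted p = 0.0095), to means of 8.55 to 9.09 from means of 8.97 to 9.41. It was 1 of 6 pathway genes called in that interval, 3 higher and 3 lower. Of all probe sets 8.65% were called, 5.03% higher and 3.62% lower. DPP4 was higher by 0.72 (limma adjusted p = 0.04), a call lost in 16 of 40 omissions of 1 array, and THOP1, a metallopeptidase that degrades small peptides, by 0.42 (limma adjusted p = 0.0143).

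Among 30 measured precursors of other peptides 26 had a mean under 3. EDN3, the precursor of endothelin 3, rose by 1.36 from day 5 to day 7 (limma adjusted p = 0.000218) and fell by 3.98 ± 0.29 from day 7 to day 13 (limma adjusted p = 6.18e-19), the reverse of the direction seen for PENK and NMB in that interval. NPPC, the precursor of C-type natriuretic peptide, gave 1.14 (limma adjusted p = 1.28e-06) and then -1.52, with day 13 means near the floor. ADM, the precursor of adrenomedullin, gave -0.74 from day 5 to day 7 (limma adjusted p = 0.00146) and 0.68 from day 13 to day 16 (limma adjusted p = 0.00781).

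Of 12 measured genes of signalling after the receptor, 1 rose and 4 fell from day 5 to day 7, against 8.84% and 11.8% of all probe sets. The gene that rose, PLCB4, a phospholipase C of the Gq pathway that bombesin-like receptors use, gave 0.43 ± 0.16 (limma adjusted p = 0.0436), a call lost in 22 of 39 omissions of 1 array, in each of the 4 groups alone and when only these days were fitted. Among those that fell were GNAI1 and GNAI2, inhibitory G protein alpha subunits that opioid receptors use, at -0.53 and -0.33. From day 7 to day 13 GNAI2 gave -0.40 and PLCB4 -0.50, while GNAI1 gave 0.29, a call lost in 14 of 39 omissions of 1 array.

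The progesterone device went with few calls in the lists. On day 5, where NMB differed most, 1 of 69 genes was called, against 0.908% of all probe sets: PREP, the prolyl endopeptidase, at -0.58 ± 0.12 (limma adjusted p = 0.00397). Its means were 9.46 in CN and 8.82 in CH, and 9.77 in PN and 9.26 in PH. On day 16 PREP had means of 9.48 (CN), 8.68 (CH), 9.10 (PN) and 9.26 (PH), and its response differed between pregnant and cyclic heifers by 0.96 ± 0.24 (interaction, limma adjusted p = 0.0346), against 0.87% of probe sets called. That call was lost in 9 of 20 omissions of 1 array.

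On day 7, where PENK differed, 5 of 69 genes were called, 2 higher and 3 lower. Of all probe sets 4.7% were called, 1.85% higher and 2.84% lower. DPP4 rose by 1.54 ± 0.34 (limma adjusted p = 0.00278), from 3.85 in CN to 5.73 in CH and from 4.48 in PN to 5.68 in PH. EDN1, the precursor of endothelin 1, gave -1.44 ± 0.32 (limma adjusted p = 0.00298), from 7.47 in CN to 5.95 in CH and from 7.39 in PN to 6.02 in PH. GNAI3 gave -0.32 (limma adjusted p = 0.00139). Without the 7 arrays that stood apart DPP4 was the 1 call left, and its call was lost in pregnant heifers alone and when only day 7 was fitted. The calls on NPPC at 0.85 and DPP3, a dipeptidyl peptidase that cuts enkephalins, at -0.56 were lost in 9 and 10 of 19 omissions of 1 array.

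On days 13 and 16 limma called 0 of the 69 genes for progesterone, against 0.441% and 0.0958% of all probe sets, where 1636 and 2618 probe sets had an unadjusted p under 0.05. The interaction of pregnancy and progesterone gave 0 calls among the 69 genes on days 5, 7 and 13, against 0%, 0.025% and 0.0208% of all probe sets, where 686, 4658 and 2413 had an unadjusted p under 0.05.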

How the data were processed

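The authors deposited 1 table of log2 expression values per probe set for the 79 arrays. Per the labels, Trizol extracts of total RNA were made into biotin-labelled cRNA. The submitters' processing notes name RMA, GCRMA and limma, with no versions. Whether RMA or GCRMA made the values is not given in the sources used here, so how low values were background-corrected is not known here. Array medians lay between 4.71 and 5.12. Arrays carry no read depth.

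Of 24128 probe sets 112 controls were left out and the other 24016 were tested without a filter. The platform annotation gave 1 symbol to 13292, several to 86 and none to 10638. Gene IDs of 13263 matched a current cattle gene table (ARS-UCD2.0), used for names only. Positions and sequences are not given.

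Group means were fitted with limma 3.58.1 (statmod 1.5.0, R 4.3.3) over 16 groups, with 63 residual and 1.49 prior degrees of freedom, and 15 comparisons drawn. A progesterone or pregnancy difference is the mean over both levels of the other factor, a day change the mean of 4 groups. A gene with several probe sets is represented by the one of the highest mean. No pairing of samples by replicate number was seen. The mean correlation of same-numbered deviations was 0.029, 0.047, 0.023 and -0.0092 on days 5, 7, 13 and 16. It was not set against that of differently numbered samples. On simulated data for pregnancy on day 16 (24016 probe sets, 200 changed), 93% of changes of size 1 and 99% of size 2 (log2) were recovered. The noise was normal and independent, with the SD of each real probe set, and the changed probe sets were drawn at random. Arrays that stand apart and variation shared between probe sets were not simulated. The recovery for probe sets with a spread as wide as that of NMB is not given here. Python 3.11.15, pandas 2.3.3, numpy 2.4.6 and matplotlib 3.10.9 were used for annotation and plots.

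The members, the lists and the tests were chosen with earlier results of these data known. Named genes are both members, the main receptors, precursors and enzymes of the lists, up to 3 called genes of a list with the largest difference in each comparison, and for likeness the 5 highest and 3 lowest correlations. Alternatives were quantile normalization, median centring, array weights, each arm alone, a replicate block, only the days compared, brighter probe sets only, trend and robust moderation, the most variable probe set and the omission of each array. Other arms of the day changes and the omission of the 3 arrays high in smooth muscle markers or of all 7 arrays that stood apart were chosen after seeing the data.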

Additional observations from a re-analysis of the deposited data

Results flagged for a closer look

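The NMB value of replicate 2 of the pregnant heifers with high progesterone on day 16 was 8.22, while the other 4 arrays lay between 8.81 and 9.05. Its gap to the nearest array was 0.711 of the range of the group. Among the 32 groups of 4 or 5 arrays looked at for PENK and NMB, chance marks about 1 in 20.

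The progesterone response of PREP, the prolyl endopeptidase, differed between pregnant and cyclic heifers on day 16 by 0.96 ± 0.24 (limma adjusted p = 0.0346): PREP was lower with the device in cyclic heifers (8.68 against 9.48) and not in pregnant heifers (9.26 against 9.10).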

How the results depend on the processing

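Quantile normalization, median centring and the replicate block moved no difference of PENK or NMB by more than 1 SD within groups, nor did the omission of any single array. That SD includes the arrays that stood apart, and some signs did change when 1 array was omitted. The NMB interaction went from -0.95 to 0.059 without day 5 PN 4, and on day 7 from 0.57 to -0.034 without PH 5. The PENK interaction of day 7 went from -0.70 to 0.066 without CN 5. Between arms PENK moved by more: the progesterone difference on day 13 was 0.43 in cyclic and -0.34 in pregnant heifers, the pregnancy difference on day 13 was 0.41 at normal and -0.35 at high progesterone, the day 5 to day 7 change was -0.033 in CN, and the day 13 to day 16 change was 0.44 in CN and -0.18 in CH. The day 5 to day 7 change of NMB was 1.42 in PH. Under array weights the pregnancy difference of day 5 changed sign for both genes, to -0.15 for NMB and 0.0942 for PENK, as did the interaction of day 5 (0.33 for NMB, -0.11 for PENK), the interaction of day 7 for PENK (0.27) and the day 5 to day 7 change of NMB (-0.15), and the progesterone difference of PENK on day 7 was 0.67.

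Counts of the 69 pathway genes called depended more on the settings. The share of all probe sets called under each setting or omission is not given here. The counts therefore describe the settings and are not a result about the lists. With array weights they were 2 for progesterone on day 5 (main 1), 3 on day 7 (main 5) and 23 on day 16 (main 0), 1 for pregnancy on day 5 (main 0) and 11 on day 16 (main 1), 1, 2 and 9 for the interaction on days 7, 13 and 16 (main 0, 0 and 1), 21 from day 5 to day 7 (main 11) and 10 from day 13 to day 16 (main 6). Progesterone on day 5 gave 2 with median centring or brighter probe sets and 0 in either arm. Progesterone on day 7 gave 0 in pregnant heifers and 0 when only that day was fitted, and progesterone on day 16 gave 2 in cyclic heifers. Pregnancy on day 16 gave 0 at normal and 5 at high progesterone, 0 when only that day was fitted and 2 without the arrays high in smooth muscle markers. The interaction on day 16 gave 0 when only that day was fitted. Without the 7 arrays that stood apart the counts were 1 and 7 for progesterone on days 7 and 16, 2 for pregnancy and 2 for the interaction on day 16, and 19 from day 5 to day 7. Single groups gave 0 in CN, 2 in PN and 3 in PH from day 5 to day 7, 11 in CN and 8 in PN from day 7 to day 13 (main 18), and 1 in CN, 1 in CH and 0 in PN from day 13 to day 16. The cause was not tested; a single group holds fewer arrays.

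Reversed values were DPP4 at -0.19 in CN from day 5 to day 7 and -0.61 in CH from day 13 to day 16, ADM at -0.10 and GNAI1 at -0.13 in CN from day 7 to day 13, and CHGA at 5.80 with the most variable probe set. Leaving out 1 array gave 1 to 3 calls for progesterone on day 5, 3 to 5 on day 7 and 0 to 1 on day 16, 0 to 5 for pregnancy on day 16, 0 to 12 for the interaction on day 7 (12 without day 7 CH 5), 0 to 2 for that on day 16 and 3 to 9 from day 13 to day 16.

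With the replicate block the progesterone difference of NMB on day 5 was -2.17, and pregnancy on day 16 gave 2 calls in place of 1. No pairing of samples by these numbers was seen. Each group held 4 or 5 arrays, each member had 1 probe set, and 41 of 69 pathway genes had a mean near the floor.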
